A study of Mus musculus with 8 samples.

Results

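A set of genes that mark the early, uncommitted state of tissue fibroblasts and their progenitors were followed through 8 RNA-seq libraries of sorted fibroadipogenic progenitors, muscle-resident stromal cells able to give rise to fibroblasts and adipocytes. The genes are Dpp4, Pi16, Cd55, Limch1, Sema3c, Anxa3, Cd34, Thy1, Cd248 and Ly6c1. They were taken by symbol from a table of raw counts, where 10 of 10 were found among 24419 rows and 10 of 10 passed the filter on low counts that left 13646 genes. The cells came from hindlimb muscle of male C57BL/6J mice and were sorted as SCA-1 positive, Hoechst-positive cells that were negative for CD31, CD45, α7-integrin and propidium iodide. The sham group (n = 2) had sham surgery. The KPC Scr group (n = 3) had KPCY cells, a mouse pancreatic cancer line, placed in the pancreas after transduction with a lentiviral vector that expresses a scrambled sequence. The miR-27a-KD group (n = 3) had KPCY cells transduced with a lentiviral vector that inhibits miR-27a-3p, so the inhibitor was put into the implanted cells and not into the progenitors. Each tumour group thus carries 1 puromycin-selected, transduced cell line, and no group had untransduced tumour cells. The labels used here number the libraries of a group as biological replicates and name no age, collection time or sorting day. They do not say whether a library holds cells of 1 mouse or of several.

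In adipose tissue, skin and muscle, fibroblasts that carry Dpp4 and Pi16 lie in the connective tissue sheaths and around vessels, and are described as a reserve from which more specialised stromal cells can arise. Other stromal cells of the same tissues are further committed and express genes such as Cxcl14, Hsd11b1 or Cd36. The label of the gene set speaks of surface markers, which holds for most of the genes but not all. Dpp4 is a membrane protease that removes dipeptides from peptide hormones and chemokines, Pi16 is a CAP-domain protein named as a peptidase inhibitor, and Cd55 is an anchored inhibitor of complement. Cd34 is a sialomucin, Cd248 (endosialin) a C-type lectin-like membrane protein, and Thy1 and Ly6c1 are small proteins held by a lipid anchor. Sema3c is a secreted guidance protein, whereas Limch1 binds actin and myosin and Anxa3 binds membrane lipids inside the cell.

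The sequences that define the design and the genes with the closest pattern are given first. The microRNA inhibited in the implanted cells of the miR-27a-KD group is shown with its seed, bases 2 to 8, in capitals (RefSeq, GRCm38.p6).
mmu-miR-27a-3p: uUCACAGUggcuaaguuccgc
The letters ACTGTGA, which pair with that seed, were searched on the transcript strand of the longest annotated 3′UTR of each gene in GENCODE M21. They stood in 1 of the 10 genes, at base 321 of the Cd34 3′UTR, against 16% of 21020 genes. Per length this was 0.0646 matches per kb of 3′UTR in the 10 genes and 0.13 per kb in all genes. The 30 bases around the Cd34 match are shown with the match in capitals, since no other gene of the set held one.
Cd34 3′UTR: ggctgacacagaACTGTGAtttggttgggt
Cd55 and Cd34 had the most similar profiles across libraries, each gene centred on its own mean, of any pair of the 10 genes, and Dpp4 followed a flatter course. Their 250 bases before the RefSeq start (GRCm38.p6, the assembly of mm10) are shown 5′ to 3′, with capitals for each match on either strand to 5 motifs. These were the letters TATAAA, for the box bound by the TATA-binding protein, and the letters GGGCGG, for the box bound by Sp1 and related factors. The others were the CCAAT box, the AP-1 motif, written TGANTCA where N is any base, and the STAT motif, written TTCNNNGAA.
Cd55, chr1:130462745-130462994, - strand: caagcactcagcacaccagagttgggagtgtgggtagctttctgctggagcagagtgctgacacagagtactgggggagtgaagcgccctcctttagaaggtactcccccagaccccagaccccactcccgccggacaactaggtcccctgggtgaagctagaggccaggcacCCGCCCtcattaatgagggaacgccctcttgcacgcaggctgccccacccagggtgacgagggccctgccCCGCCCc
Cd34, chr1:194938571-194938820, + strand: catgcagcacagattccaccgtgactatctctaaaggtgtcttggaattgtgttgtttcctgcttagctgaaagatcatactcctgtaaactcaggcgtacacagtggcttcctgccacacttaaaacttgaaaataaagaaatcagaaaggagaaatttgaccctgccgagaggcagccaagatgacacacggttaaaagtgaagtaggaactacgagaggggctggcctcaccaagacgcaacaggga
Dpp4, chr2:62412232-62412481, - strand: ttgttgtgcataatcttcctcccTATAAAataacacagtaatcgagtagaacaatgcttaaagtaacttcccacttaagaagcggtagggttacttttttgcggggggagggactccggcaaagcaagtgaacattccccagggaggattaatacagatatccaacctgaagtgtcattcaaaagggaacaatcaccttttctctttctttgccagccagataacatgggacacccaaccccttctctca
The Cd55 window held 2 matches to GGGCGG and had a GC content of 64%, whereas the Cd34 window held no match to any of the 5 motifs and had 46.4% GC. The Dpp4 window held 1 match to TATAAA, at -227 from the start and so near the far end of the window, and had 43.6% GC. Whether that match acts as a TATA box was not tested. Of all 32851 RefSeq promoter windows of this length, 32.7% held GGGCGG, 12.4% TATAAA, 33.8% the CCAAT box, 6.75% the AP-1 letters and 7.02% the STAT letters, and none of the 10 windows found for 7 of the genes held either of the last 2 motifs. Windows were matched for Dpp4, Pi16, Cd55, Limch1, Sema3c, Cd34 and Ly6c1, and the other genes are Anxa3, Thy1 and Cd248.

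By GENCODE M21 (GRCm38, the build of mm10) Dpp4 lies at chr2:62330073-62412231 on the - strand, Pi16 at chr17:29317680-29330593 (+) and Limch1 at chr5:66745827-67057158 (+). Sema3c (chr5:17574281-17730268, +) and Anxa3 (chr5:96793339-96845966, +) share chromosome 5 with Limch1. Cd55 (chr1:130439027-130462744, -) and Cd34 (chr1:194938819-194961279, +) share chromosome 1, far apart. Thy1 lies at chr9:44043384-44048579 (+), Ly6c1 at chr15:75044018-75048830 (-) and Cd248, whose annotated model is a single exon, at chr19:5068078-5070682 (+). Dpp4, Pi16, Cd55, Limch1 and Cd34 overlap annotated antisense genes, and the strand used in counting is not given in the sources used here, so reads of the partners could be mixed. Ly6c1 and Cd55 have near-identical neighbours, Ly6c2 and Cd55b, between which reads could be split. Ly6c2 had from 0 to 22 reads in a library and Cd55b had 0 in each, a count that would allow 3 reads at most from counting error.

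Total counts per library ran from 15647436 to 28340450, and the 3 KPC Scr libraries differed more from one another than did those of the other groups. Over all genes tested the root mean square difference in log2 CPM was 1.27 between KPC Scr libraries 1 and 2, 1.10 between 2 and 3 and 0.869 between 1 and 3, against 0.568 between the sham libraries and at most 0.714 among the miR-27a-KD libraries. KPC Scr library 2 stood apart from libraries 1 and 3, so the results on the 10 genes and the counts over the other lists are given with and without it. Pdgfra, the receptor that marks these progenitors, lay between 1256 and 1588 normalised CPM (read counts divided by library size and TMM factor) in all 8 libraries, and Ptprc (CD45) stood at no more than 2.51 CPM. Pecam1 (CD31) lay between 20.2 and 73.0 CPM and Itga7 (α7-integrin) between 2.78 and 11.5 CPM, so their transcripts were low but present after a sort against the proteins. They were not even across groups. Without KPC Scr library 2, Pecam1 was called higher in KPC Scr than in sham libraries (1.39 ± 0.22, edgeR, adjusted p = 0.00039). So was Itga7 (1.29 ± 0.42, edgeR, adjusted p = 0.0235), whereas Ptprc was not called. Of 10 genes of progenitor identity 0 were called between any pair of groups by edgeR, but the list did not stay level. Its mean log2 CPM relative to sham was -0.80, 0.07 and -1.04 in KPC Scr libraries 1, 2 and 3 and from 0.01 to 0.09 in miR-27a-KD libraries. Col3a1, a fibrillar collagen, stood at 990.1, 10123 and 974 CPM in those KPC Scr libraries, against 22477 and 13185 CPM in sham (-2.15 ± 0.90, edgeR, adjusted p = 0.156); it was chosen after its values were seen. With that library 2 left out, 4 of the 10 were called lower and 1 higher in KPC Scr than in sham libraries, beside 25.6% and 25.4% of all genes. The part of this difference in the results on the marker genes was not tested.

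The comparison of KPC Scr with sham libraries asked how the markers stand in progenitors of mice with a pancreatic tumour. All 10 genes had a lower fitted level in KPC Scr than in sham libraries, 9 of 10 without overlap between the groups, and Limch1 alone passed the test over all genes. The 10 genes together took 0.980% and 0.941% of the counts in sham libraries 1 and 2, but 0.135%, 0.607% and 0.122% in KPC Scr libraries 1, 2 and 3. Limch1 stood at 107 and 124 CPM in sham libraries 1 and 2 and at 49.4, 51.2 and 36.1 CPM in KPC Scr libraries 1, 2 and 3. Libraries 1 and 2 lay close together for this gene and library 3 was lower, and each lay below both sham libraries. Limch1 fell by 1.34 ± 0.20 (SE) on the log2 scale, from 116 ± 12.2 CPM (SD, n = 2) to 45.6 ± 8.28 CPM (n = 3), by edgeR's quasi-likelihood test with an adjusted p of 0.0247.

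The protease and the 2 named inhibitors differed in how far KPC Scr library 2 departed from its group. Dpp4 stood at 342 and 381 CPM in sham and at 133, 287 and 149 CPM in KPC Scr libraries. Library 2 held 79.3% of the sham mean and libraries 1 and 3 held 36.8% and 41.2%. The Dpp4 change was -0.93 ± 0.30 (edgeR, adjusted p = 0.106), and no KPC Scr library reached the sham range. Pi16, among the most abundant of the genes, stood at 2722 and 2974 CPM in sham and at 295, 2305 and 189 CPM in KPC Scr libraries. Libraries 1 and 3 thus held 10.4% and 6.63% of the sham mean while library 2 held 80.9%. With such a spread the Pi16 change of -1.61 ± 0.84 did not pass (edgeR, adjusted p = 0.223). Cd55 stood at 354 and 290.3 CPM in sham and at 24.4, 159.8 and 24.4 CPM in KPC Scr libraries. Its libraries 1 and 3 agreed closely, at 7.57% of the sham mean each, and library 2 lay between them and sham. The Cd55 change was -2.21 ± 0.70 (edgeR, adjusted p = 0.103).

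The surface glycoproteins included the genes with the largest changes, Thy1 and Cd248. Thy1 stood at 660 and 351 CPM in sham libraries, the widest spread relative to its mean of the 10 genes there, and at 20.3, 138 and 6.86 CPM in KPC Scr libraries. KPC Scr library 1 held 4.01% of the sham mean, library 2 held 27.3% and library 3 was the lowest. The Thy1 change was -3.19 ± 0.93, the largest of the set (edgeR, adjusted p = 0.0898). Cd248, a marker of pericytes and stromal fibroblasts, stood at 1815 and 1411 CPM in sham and at 54.3, 624 and 59.0 CPM in KPC Scr libraries. That is 3.37%, 38.7% and 3.66% of the sham mean, again with library 2 between the others and sham. The Cd248 change was -2.71 ± 0.90 (edgeR, adjusted p = 0.106). Cd34, which muscle progenitors share with blood vessel cells, stood at 2250 and 2156 CPM in sham and at 213, 1179 and 241 CPM in KPC Scr libraries. Library 2 held 53.5% of the sham mean and the others far less, 9.67% and 10.9%. The Cd34 change was -2.02 ± 0.63 (edgeR, adjusted p = 0.101).

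Sema3c, Anxa3 and Ly6c1 completed the set and showed unlike patterns. Sema3c stood at 556 and 611 CPM in sham and at 78.0, 246 and 64.3 CPM in KPC Scr libraries, so even its library 2 lay below the level of both sham libraries at 42.1% of their mean. Its change of -2.17 ± 0.48 came closest to the threshold after Limch1 (edgeR, adjusted p = 0.0581). Anxa3 stood at 426 and 371 CPM in sham and at 304, 365 and 224 CPM in KPC Scr libraries. The groups were apart by a small margin only, between sham library 2 and KPC Scr library 2. The Anxa3 change was -0.42 ± 0.23 (edgeR, adjusted p = 0.243). Ly6c1 was the 1 gene whose groups overlapped: sham stood at 467 and 462 CPM, and KPC Scr at 324, 753 and 245 CPM. KPC Scr libraries 1 and 3 lay below sham and library 2 above it, at 162% of the sham mean. The Ly6c1 change was -0.07 ± 0.40 (edgeR, adjusted p = 0.908).

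**Figure D1:**
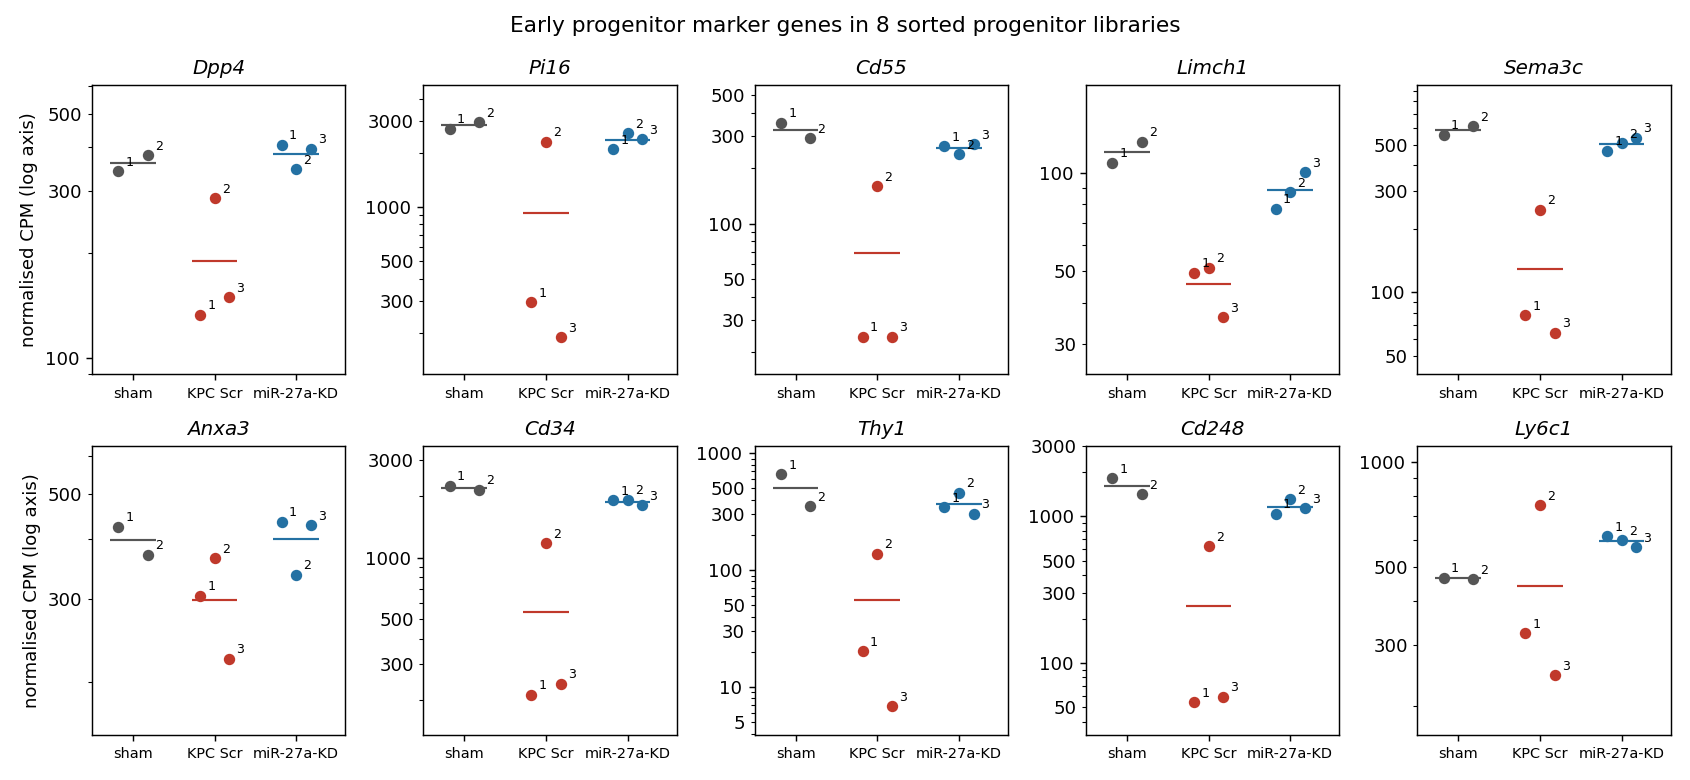
Normalised CPM (log axis, a separate range for each gene) of the 10 genes by group, with 1 point per library, its replicate number beside it and a line at the group mean. In the KPC Scr group library 2 is the highest for every gene, by little for Limch1 (49.4, 51.2 and 36.1 CPM), and libraries 1 and 3 lie nearer to each other than to it for most genes but not for Limch1 or Anxa3.

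Over all 13646 genes, 1.58% were called in this comparison and 0.476% were called lower, so 1 of 10 is more than the share of all genes but is a single gene. Groups did not overlap, with KPC Scr lower, for 20.8% of all genes, against 9 of the 10. An unadjusted p under 0.05 with a lower level was found for 12.5% of all genes and for 7 of the 10. The median log2 change of the 10 genes was -1.82, and that of all genes 0.00. The Thy1 change was near the lower end of all genes, with 0.469% of them lower still. The corresponding shares were 0.769% for Cd248, 1.48% for Cd55, 1.57% for Sema3c, 1.92% for Cd34, 3.65% for Pi16, 5.81% for Limch1, 12.1% for Dpp4, 28.4% for Anxa3 and 45.7% for Ly6c1. RNA from a mixed population cannot tell fewer cells that carry a marker from less RNA of that marker in each cell.

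Without KPC Scr library 2 all 10 genes were called lower (edgeR, adjusted p from 1.04e-07 to 0.0207; over all alternatives of these genes up to 0.972), where 25.6% of all genes tested were called lower. The log2 change was then -5.14 ± 0.55 for Thy1, -4.83 ± 0.21 for Cd248, -3.72 ± 0.17 for Cd55, -3.55 ± 0.23 for Pi16 and -3.27 ± 0.17 for Cd34. It was -3.02 ± 0.16 for Sema3c, -1.42 ± 0.18 for Limch1, -1.35 ± 0.15 for Dpp4, -0.70 ± 0.16 for Ly6c1 and -0.58 ± 0.19 for Anxa3. Limch1 thus hardly moved when the library was left out, whereas Pi16 went from -1.61 to -3.55 and Ly6c1 from -0.07 to -0.70. Without KPC Scr library 1 or 3 the Ly6c1 change turned positive, at 0.11 and 0.22, and was not called (edgeR, adjusted p = 0.903 and 0.716). The Limch1 call was lost without sham library 1 or 2, KPC Scr library 3 or any 1 of the miR-27a-KD libraries (edgeR, adjusted p from 0.0614 to 0.203). It was also lost in a fit of sham and KPC Scr libraries alone (adjusted p = 0.187), where 0.0303% of all genes were called, and with the replicate number as a block (adjusted p = 0.0946). Its adjusted p ranged from 2.15e-06 to 0.203 over all alternatives. DESeq2 called Limch1, Dpp4, Sema3c, Cd34 and Thy1 lower, 5 of the 8 genes to which it gave a p, beside 5.52% of all genes, and gave none for Pi16 and Cd248.

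**Figure D2:**
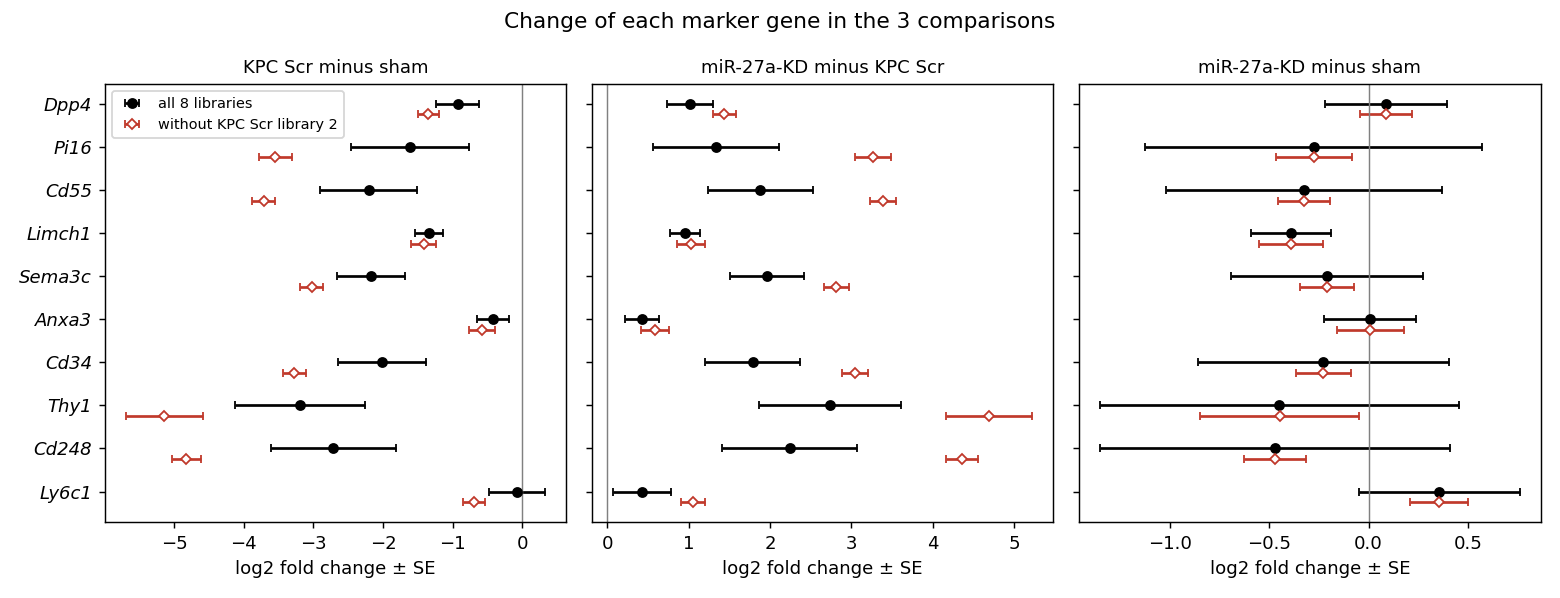
Log2 fold change (x axis) with its SE as bars for each of the 10 genes in the 3 comparisons, fitted to all 8 libraries (filled circles) and without KPC Scr library 2 (open diamonds). Thy1 moves from -3.19 to -5.14 in the first comparison when the library is left out and Limch1 only from -1.34 to -1.42, while the changes in the third comparison, none of which was called, lie within 0.5 of 0.

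The comparison of miR-27a-KD with KPC Scr libraries asked whether the markers differ once the implanted tumour cells carry the miR-27a-3p inhibitor. It shares the KPC Scr libraries with the comparison above, so the changes of the 2 comparisons are not independent. The fitted change was positive for 10 of 10 genes and none passed (edgeR, adjusted p from 0.0610 for Limch1 to 0.408 for Ly6c1; 7 of 10 had an unadjusted p under 0.05). The miR-27a-KD libraries lay above every KPC Scr library, without overlap, for 7 of 10 genes, against 17.5% of all genes tested. Pi16, Anxa3 and Ly6c1 overlapped, in each case with KPC Scr library 2. Of all genes 0.0513% were called in either direction and 0.00733% were called higher in miR-27a-KD, so the 0 of 10 does not stand out from the background. An unadjusted p under 0.05 with a higher level was found for 13.9% of all genes.

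In miR-27a-KD libraries 1, 2 and 3 Limch1 stood at 77.5, 87.1 and 100.3 CPM, which lay between the sham and the KPC Scr libraries. Its change from KPC Scr was 0.95 ± 0.18 (edgeR, adjusted p = 0.0610). Dpp4 stood at 408, 346 and 397 CPM, 113%, 95.9% and 109.9% of the sham mean, and its change was 1.02 ± 0.28 (adjusted p = 0.0750). The Dpp4 levels thus overlapped the sham range and reached above it. Thy1 stood at 347, 460.3 and 303 CPM (change 2.74 ± 0.87, adjusted p = 0.0898) and Cd248 at 1044, 1306 and 1140.2 CPM (2.24 ± 0.83, adjusted p = 0.114). Sema3c stood at 467, 508 and 538 CPM (1.96 ± 0.45, adjusted p = 0.0716) and Cd34 at 1914, 1925 and 1805 CPM (1.79 ± 0.58, adjusted p = 0.0933). These 4 genes lay far above KPC Scr libraries 1 and 3 and less far above library 2. Cd55 stood at 263, 238 and 269.7 CPM (1.88 ± 0.65, adjusted p = 0.100) and Pi16 at 2102, 2565 and 2391 CPM (1.34 ± 0.78, adjusted p = 0.247). For Pi16, KPC Scr library 2 at 2305 CPM lay within the range of the miR-27a-KD libraries. Anxa3 stood at 436, 337 and 429 CPM (0.43 ± 0.21, adjusted p = 0.186) and Ly6c1 at 613, 598 and 571 CPM (0.43 ± 0.36, adjusted p = 0.408). All these p-values are from edgeR.

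Without KPC Scr library 2 all 10 genes were called higher in miR-27a-KD (edgeR, adjusted p from 1.01e-07 to 0.0123; over all alternatives up to 0.800), beside 27.3% of all genes. The log2 change was then 4.69 ± 0.53 for Thy1, 4.36 ± 0.20 for Cd248, 3.39 ± 0.16 for Cd55, 3.27 ± 0.22 for Pi16, 3.05 ± 0.16 for Cd34 and 2.82 ± 0.16 for Sema3c. Dpp4 had 1.44 ± 0.14, Ly6c1 1.05 ± 0.15, Limch1 1.03 ± 0.17 and Anxa3 0.59 ± 0.17. DESeq2, with all libraries, called Limch1, Sema3c, Dpp4, Cd34 and Thy1 higher, beside 5.8% of all genes.

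The comparison of miR-27a-KD with sham libraries found no call among the 10 genes (edgeR, adjusted p = 1 for each; 0 of 10 at an unadjusted p under 0.05; 0 with DESeq2 and limma-voom), where 0.00733% of all genes were called. The log2 change ran from -0.47 ± 0.88 for Cd248 and -0.45 ± 0.90 for Thy1 to 0.36 ± 0.40 for Ly6c1. These errors come from the fit to all 8 libraries. Without KPC Scr library 2 the changes were nearly the same and the errors smaller, at -0.47 ± 0.16 for Cd248, -0.33 ± 0.13 for Cd55 and 0.36 ± 0.15 for Ly6c1, and 0 of 10 were called (edgeR, adjusted p from 0.475 to 0.997). Cd55, Cd34, Cd248, Pi16, Limch1 and Sema3c lay below both sham libraries in all 3 miR-27a-KD libraries, between 64.7% and 92.3% of the sham mean, and Ly6c1 lay above them at 123% to 132%. That is 6 of 10 lower without overlap and 1 higher, beside 13.5% and 13.8% of all genes. Fitted on these 2 groups alone, 4 of the 10 had an unadjusted p under 0.05, beside 10.1% of all genes, and 0 passed adjustment (edgeR), beside 0.765% of all genes. Cd248 then had a change of -0.47 ± 0.14.

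**Figure D3:**
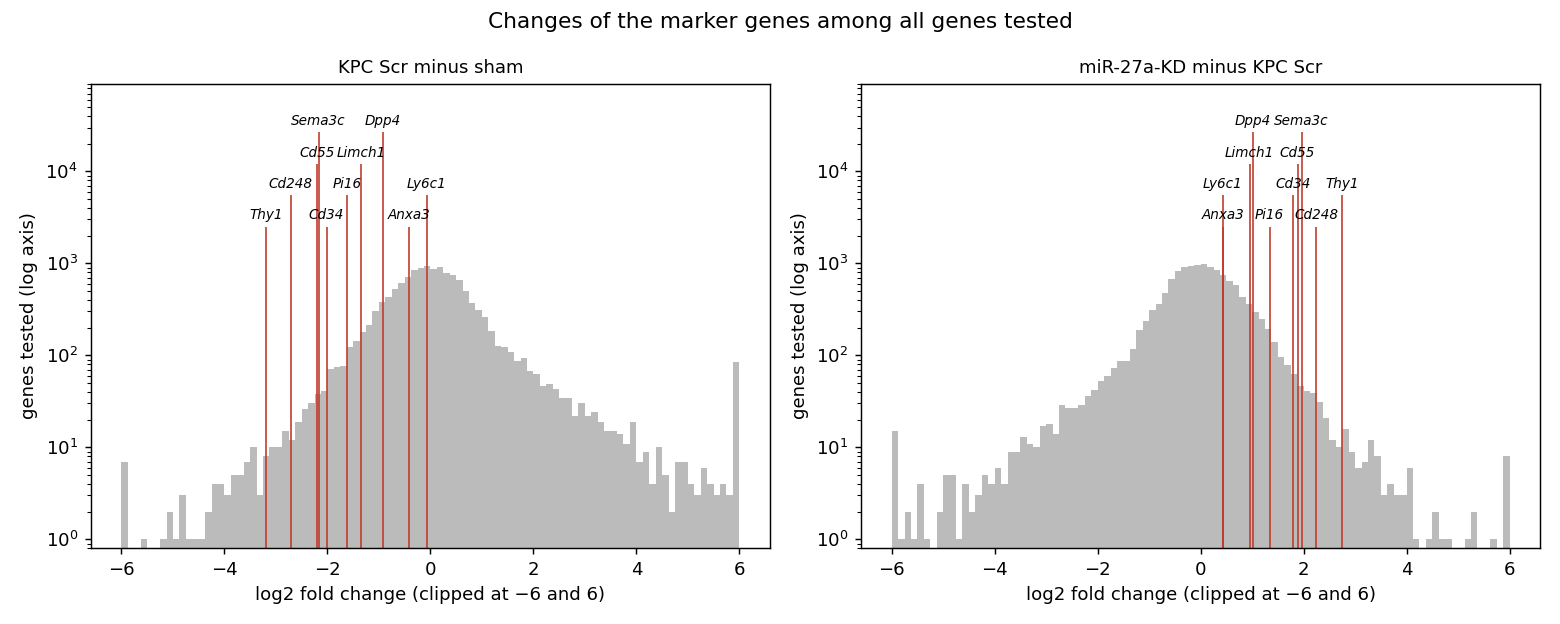
Distribution of log2 fold changes of all genes tested (grey histogram, count on a log axis, changes clipped at -6 and 6) in 2 comparisons, with a red line and name at each of the 10 genes. In the comparison of KPC Scr with sham the genes range from -3.19 (Thy1) to -0.07 (Ly6c1), and in that of miR-27a-KD with KPC Scr from 0.43 to 2.74.

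Levels of different genes were compared per kilobase of annotated exon. In sham libraries Cd248 was highest, at 619 ± 109.7 CPM per kb (SD, n = 2), followed by Pi16 (448 ± 28), Cd34 (302 ± 9.11), Ly6c1 (277 ± 2.35), Thy1 (169 ± 72.9), Anxa3 (109 ± 10.6), Sema3c (81.7 ± 5.45), Cd55 (66.4 ± 9.24), Dpp4 (57.2 ± 4.34) and Limch1 (11.3 ± 1.19). Among neighbours in this order only Cd55 and Dpp4 overlapped between libraries. The miR-27a-KD libraries gave nearly the same order, with Ly6c1 (354 ± 12.5 CPM per kb, n = 3) above Cd34 (258 ± 9.08) and Dpp4 (60.7 ± 5.18) above Cd55 (52.9 ± 3.45). In KPC Scr libraries Ly6c1 was highest (263 ± 163 CPM per kb, n = 3), followed by Pi16 (146 ± 187), Cd248 (94.3 ± 126) and Anxa3 (81.7 ± 19.4). There, all neighbours overlapped except Cd55 (14.3 ± 16.1) and Limch1 (4.44 ± 0.81), which was lowest in each group. Exon length here is the union over annotated transcripts, which makes genes with long alternative exons look lower.

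Ratios of counts within a library do not depend on scaling and show the unequal differences directly. Per length, Pi16 exceeded Dpp4 by 7.91 and 7.76 fold in sham libraries 1 and 2, by 2.21, 7.99 and 1.26 fold in KPC Scr libraries 1, 2 and 3 and by 5.12, 7.35 and 5.98 fold in miR-27a-KD libraries. KPC Scr library 2 kept the sham ratio of these 2 genes, and libraries 1 and 3 did not. The ratio of Cd34 to Ly6c1 per length was 1.11 and 1.07 in sham, 0.151, 0.360 and 0.226 in KPC Scr and 0.719, 0.740 and 0.727 in miR-27a-KD libraries, so there library 2 went with its group. The ratio of Cd34 to Cd55 stayed between 4.23 and 6.57 in all 8 libraries. These pairs were chosen after the values were seen.

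The likeness of 2 genes was measured as the root mean square difference of their log2 CPM over the 8 libraries, each gene centred on its own mean. The most alike pair was Cd55 and Cd34 (0.19), followed by Sema3c and Cd34 (0.22) and Pi16 and Cd55 (0.31). Anxa3 and Thy1 were the least alike (1.95). Dpp4 was nearer to Limch1 (0.35), Ly6c1 (0.37) and Anxa3 (0.38) than to Pi16 (0.94), the gene with which it is named. Neighbours were also sought among named genes with a mean of at least 5 CPM. Symbols of the Gm or Rik type, accession-like symbols and those that start with a digit were left out. Those most like Dpp4 were Antxr2 (0.09), Sec23a (0.10) and Zmat1 (0.10), and those most like Pi16 were Tspan18 (0.17), Fgf11 (0.21) and Mrgprf (0.22).

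Of 20 other genes of the early progenitor state, 2 were called lower in KPC Scr than in sham libraries and 19 of 20 had a negative change, with a median of -1.26 (0.00 over all genes). Called lower were 0.476% of all genes. Dact2, a modulator of TGF-beta and Wnt signalling, stood at 258 and 177 CPM in sham and at 15.5, 54.4 and 12.3 CPM in KPC Scr libraries, and fell by 2.98 ± 0.54 (edgeR, adjusted p = 0.0378). Fbn1, the microfibril protein fibrillin-1, stood at 7160 and 6760 CPM in sham and at 802, 2534 and 870 CPM in KPC Scr libraries, and fell by 2.31 ± 0.46 (edgeR, adjusted p = 0.0466). Both had KPC Scr library 2 as the highest of its group and lay well below sham in each. In 16 of the 20 genes the groups did not overlap, with KPC Scr lower, against 20.8% of all genes. With KPC Scr library 2 left out, Dact2 had a change of -3.95 ± 0.21 and Fbn1 one of -3.05 ± 0.19, and 16 of the 20 were called lower, beside 25.6% of all genes. In miR-27a-KD against KPC Scr libraries 17 of 20 had a positive change, with a median of 0.99, 15 of 20 without overlap (17.5% of all genes) and 0 called. In the fit without KPC Scr library 2, 16 of the 20 were called higher, beside 27.3% of all genes. The 2 with the smallest p were Opcml (1.48 ± 0.27, edgeR, adjusted p = 0.0610) and Bmp7 (1.67 ± 0.35, adjusted p = 0.0684). In miR-27a-KD against sham libraries 0 of 20 were called, with a median change of -0.27. Of the 20, 16 had a negative change and 11 lay lower without overlap, beside 13.5% of all genes. Without KPC Scr library 2, Dact2 alone was called lower than sham (-0.91 ± 0.16, edgeR, adjusted p = 0.0487), where 0.236% of all genes were called.

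Of 20 genes of committed stromal cells, 3 were called higher in KPC Scr than in sham libraries, beside 1.1% of all genes, and 15 of 20 had a positive change (median 0.63). Apod, a lipid-binding lipocalin, stood at 447 and 992 CPM in sham and at 13972, 5463 and 16485 CPM in KPC Scr libraries, and rose by 4.06 ± 0.57 (edgeR, adjusted p = 0.0206). Cd36, a fatty acid receptor, rose by 2.11 ± 0.32 (adjusted p = 0.0252) and Hsd11b1, which activates glucocorticoids, by 1.88 ± 0.34 (adjusted p = 0.0378), both by edgeR. In these 3 genes KPC Scr library 2 was the lowest of its group and still lay above both sham libraries. Col15a1, for which the list is named, went the other way: it stood at 1567 and 963 CPM in sham and at 31.5, 364 and 26.4 CPM in KPC Scr libraries (-3.17 ± 0.96, edgeR, adjusted p = 0.0966). It was singled out after its values were seen. In miR-27a-KD against KPC Scr libraries 14 of the 20 had a negative change (median -0.30) and 0 were called. Without KPC Scr library 2 the changes against sham were 4.41 ± 0.36 for Apod, 2.35 ± 0.21 for Cd36, 2.18 ± 0.15 for Hsd11b1 and -5.44 ± 0.31 for Col15a1. Of the 20 genes 9 were then called higher and 5 lower than sham, beside 25.4% and 25.6% of all genes. In miR-27a-KD against KPC Scr libraries 5 were called higher and 7 lower, beside 27.3% and 26.6% of all genes. In miR-27a-KD against sham libraries, with all libraries fitted, 17 of 20 had a positive change (median 0.34) and 0 were called. Of the 20, 11 lay higher and 1 lower without overlap, beside 13.8% and 13.5% of all genes. Without KPC Scr library 2, Cd36 alone was called higher than sham (1.28 ± 0.20, edgeR, adjusted p = 0.0340), where 0.236% of all genes were called.

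**Figure D4:**
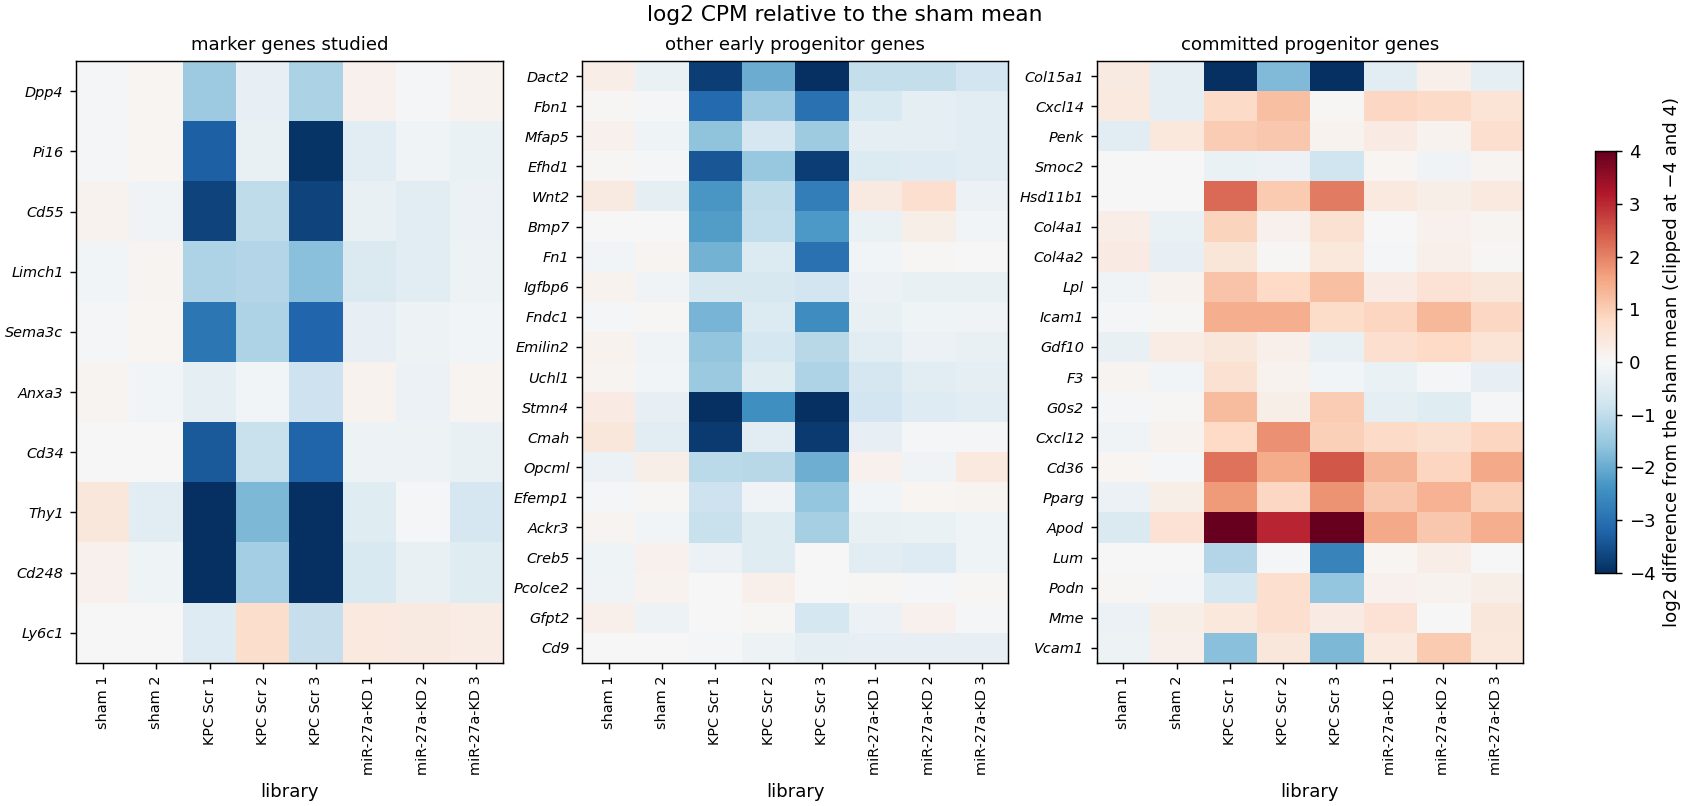
Log2 CPM relative to the sham mean (colour, blue lower and red higher, clipped at -4 and 4) for the 10 marker genes, 20 other early progenitor genes and 20 committed progenitor genes (rows) in the 8 libraries (columns). On average over the list the marker genes lie at -2.63, -0.75 and -2.96 in KPC Scr libraries 1, 2 and 3 and between -0.22 and -0.17 in the miR-27a-KD libraries.

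Relatives of the 10 genes were counted from lists by family. Of 8 tested genes listed as dipeptidyl peptidases or their relatives, 0 were called in KPC Scr against sham libraries. The one with the smallest p, Prcp, stood at 25.3 and 25.6 CPM in sham and 5.56, 14.9 and 5.04 CPM in KPC Scr libraries (-1.56 ± 0.41, edgeR, adjusted p = 0.0775). Of 9 tested annexins 0 were called, 7 had a negative change and the median was -1.01, lower than the -0.42 of Anxa3. Anxa2, a partner of membrane and actin, stood at 1277 and 957 CPM in sham and at 211, 596 and 246 CPM in KPC Scr libraries (-1.67 ± 0.40, edgeR, adjusted p = 0.0644). Among 13 other class 3 semaphorins and their receptors, the receptor Nrp2 was called higher (1.72 ± 0.35, edgeR, adjusted p = 0.0488), beside 1.1% of all genes. It stood at 25.6 and 33.3 CPM in sham and at 102, 54.9 and 134 CPM in KPC Scr libraries. Sema3c and Nrp2 thus lay on opposite sides of sham in each KPC Scr library. None of 4 tested genes listed with the membrane complement regulators was called in KPC Scr against sham libraries. Adgre5 (CD97), the receptor that binds Cd55 and not itself such a regulator, had a change of -1.48 ± 0.50 (edgeR, adjusted p = 0.111). The regulator Cr1l had one of 0.36 ± 0.17 (edgeR, adjusted p = 0.200). Of the Ly6 family 4 were tested and 0 called. Ly6a, which encodes the SCA-1 of the sort, stood at 951 and 933 CPM in sham, at 451, 1136 and 436 CPM in KPC Scr and from 1033 to 1175 CPM in miR-27a-KD libraries. As for Ly6c1, KPC Scr libraries 1 and 3 lay below sham and library 2 above it. Of the kin of Cd34 and Cd248 and of the CAP family of Pi16, 0 of 5 and 0 of 4 tested genes were called. In the comparison of miR-27a-KD with KPC Scr 0 genes of these families were called. When KPC Scr library 2 was left out, 25.4% of all genes were called higher than sham and 25.6% lower. In that fit 6 of the 9 annexins were called lower, Anxa2 among them (-2.28 ± 0.18). Of the 8 genes listed with the dipeptidyl peptidases 3 were called lower and 1 higher. Lower were Prcp (-2.24 ± 0.23), Fap (-1.86 ± 0.14), which had the smallest p of the list there, and Dpp6 (-4.08 ± 0.66). Dpp8 was called higher (0.47 ± 0.14). Of the 13 semaphorins and receptors 6 were then called higher and 4 lower, with Nrp2 at 2.00 ± 0.18. The Cd55 receptor Adgre5 was called lower (-2.26 ± 0.34), while the complement regulators Cd46, Cd59a and Cr1l were not called (edgeR, adjusted p from 0.0769 to 0.330). Of the Ly6 family 2 of 4 were then called lower, of the kin of Cd34 and Cd248 3 of 5 lower and 1 higher, and of the CAP family 2 of 4 lower and 1 higher.

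Markers of other cell types were summed beside these results. Endothelial genes, which matter for Cd34 and Ly6c1, summed to 717 to 791 CPM in sham, 542 to 641 CPM in KPC Scr and 720.1 to 827 CPM in miR-27a-KD libraries. None of the 12 was called between any pair of groups, though 9 of 12 had a positive change in KPC Scr against sham libraries (median 0.43). The endothelial cadherin Cdh5 stood at 42.1 and 31.7 CPM in sham and at 64.8, 27.7 and 41.4 CPM in KPC Scr libraries. Pericyte genes, which matter for Cd248, summed to 178 to 208 CPM in sham and 150.3 to 239.6 CPM in KPC Scr libraries, with 0 of 8 called. Their sums hide that 7 of 8 had a positive change between these groups, with a median of 1.02. Genes of mature adipocytes summed to 1.14 and 3.74 CPM in sham, 21.3 to 49.6 CPM in KPC Scr and 3.13 to 9.99 CPM in miR-27a-KD libraries. One of the 5 tested, Plin4, was called higher in KPC Scr than in sham (3.59 ± 0.59, edgeR, adjusted p = 0.0300), beside 1.1% of all genes. Lep was at 0 in each library. Muscle fibre genes summed to 28.2 and 61.6 CPM in sham and to 75.0, 87.7 and 281 CPM in KPC Scr libraries 1, 2 and 3, and from 43.1 to 53.4 CPM in miR-27a-KD libraries, with 0 of 8 called. Macrophage genes summed to at most 56.1 CPM and lymphocyte genes to at most 0.57 CPM in any library. The macrophage sums were 25.6 and 20.9 CPM in sham and 52.1, 28.7 and 31.0 CPM in KPC Scr libraries 1, 2 and 3. Of 10 macrophage genes 9 had a positive change there (median 1.15) and 0 were called. Tested genes of tenocytes (8), muscle stem cells (4), neutrophils (4), mesothelium (1) and tumour epithelium (4) had no call between any pair of groups. This was by edgeR with all 8 libraries. Tenocyte genes had a negative change in 7 of 8 in KPC Scr against sham libraries, 3 of 8 without overlap, with a median of -1.29. Their median in miR-27a-KD against KPC Scr libraries was 1.19. Their summed level was 716 and 1180.2 CPM in sham, 767, 933 and 670.3 CPM in KPC Scr and from 715 to 1461 CPM in miR-27a-KD libraries. Of 7 Schwann cell genes Ncam1 was called lower in KPC Scr than in sham (-1.57 ± 0.27, edgeR, adjusted p = 0.0366), beside 0.476% of all genes. The list went the other way, with a positive change in 5 of 7 and a median of 0.87. Its sum was 47.3 and 54.1 CPM in sham and 103, 60.3 and 91.3 CPM in KPC Scr libraries 1, 2 and 3. Leaving out KPC Scr library 2 gave changes of 3.76 ± 0.52 for Plin4 and -1.62 ± 0.28 for Ncam1. In that fit of KPC Scr against sham, 25.4% of all genes were called higher and 25.6% lower. Of 12 endothelial genes 6 were then called higher (Pecam1, Kdr, Vwf, Cldn5, Esam and Erg) and 2 lower (Tek and Eng). Cdh5 was not called (0.55 ± 0.22, edgeR, adjusted p = 0.0580). Of 8 pericyte genes 3 were called higher and 1 lower. Of 7 Schwann cell genes 3 were called higher and 2 lower, beside 2 of 8 fibre genes higher and 3 of 8 tenocyte genes lower. Of 3 muscle stem cell genes tested there 1 was called higher and 2 lower, and of 4 tumour epithelium genes 1 higher and 2 lower. The 1 mesothelium gene was called lower. Called higher were 2 of 3 adipocyte genes and 1 of 10 macrophage genes, and 0 of 4 neutrophil genes were called. The adipocyte and fibre sums were higher in each KPC Scr library than in sham, at 22.6, 21.3 and 49.6 CPM for adipocyte genes in libraries 1, 2 and 3. For these 2 lists the sums of library 2 were near those of library 1, but other sums differed between them. The macrophage and Schwann cell sums were lower in library 2 than in library 1. The muscle stem cell sum was higher, at 117 against 40.6 CPM. The part of these cell types in the results on the marker genes was not tested.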

How the data were processed

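The members and the other lists were chosen with earlier results of these data known. The authors deposited 1 table of raw read counts per gene symbol, with 1 column per library; per the submitters' processing notes the build was mm10, and STAR, Bowtie, bcl2fastq 2.20, R 4.2.1 and DESeq2 1.36.0 are listed with no roles. Which program counted the reads, on which annotation and strand, is not given in the sources used here. In it, 25 symbols had been turned into dates, and 95.5% of symbols matched 1 gene of GENCODE M21. Columns were matched to samples by the labels' descriptions and groups taken from titles.

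Here, genes were kept by filterByExpr (minimum count 10, total 15), scaled by TMM and fitted with edgeR 4.0.16 in R 4.3.3 (quasi-likelihood, robust, not legacy) with 3 group means over 8 libraries. Tests were two-sided with Benjamini-Hochberg adjustment over 13646 genes and a threshold of 0.05, called here. SEs are the absolute log2 change over the square root of F. Log2 CPM used a prior count of 2. Counts are of reads, and no molecular identifiers are named. The p-values measure the spread between these libraries, which was larger than counting error alone. The 16 alternatives were other size factors, DESeq2 1.42.0, limma-voom (limma 3.58.1), the legacy method, 2 other filters, fits of 2 groups, a replicate block and 8 fits that each left out 1 library. The other lists were also counted without KPC Scr library 2, a choice made after seeing the data. All 10 genes are named. Of other lists, the called genes are named, else up to 2 of smallest p. Pecam1, Cdh5, Ptprc and Itga7 are also named, as defining markers of other cell types.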

Additional observations from a re-analysis of the deposited data

How the results depend on the processing

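Of the 10 genes, 1 was called in KPC Scr against sham libraries, 0 in miR-27a-KD against KPC Scr and 0 in miR-27a-KD against sham. Other size factors (RLE), limma-voom, the legacy method and both other filters gave the same counts. In KPC Scr against sham, DESeq2 called 5, the fit of only the 2 groups compared called 0 and the fit with the replicate number as a block called 0. Leaving out 1 library at a time gave from 0 to 10, with 10 only without KPC Scr library 2, 1 without KPC Scr library 1 and 0 without any other. In miR-27a-KD against KPC Scr, DESeq2 called 5, and leaving out 1 library gave 0, except 10 without KPC Scr library 2. The miR-27a-KD against sham count was 0 in each alternative. The cause of these differences was not tested. The replicate numbers share only a number: the correlation over genes of deviations from the group means ran from -0.06 to 0.17 for libraries with the same number, and the block changed no other count. Where a sham library was left out, the lone sham library was assumed to vary like the other groups. Each group held 2 or 3 libraries, and whether their number or the read depth limits these calls was not tested.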
